A study of Caenorhabditis elegans with 6 samples.

Results

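Vitellogenins are the yolk proteins of Caenorhabditis elegans. They are large lipid-carrying proteins that the intestine of the adult hermaphrodite makes in great amounts, secretes into the body cavity and supplies to oocytes, which take them up through the receptor RME-2. Embryos receive the proteins from the mother rather than making them. The intestine descends from EMS, the founder blastomere whose daughters give rise to endoderm and to part of the mesoderm, so the family is a set of genes of an EMS-derived tissue, studied here in embryos, well before that tissue makes yolk.

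The genes described are vit-2, vit-3, vit-4, vit-5 and vit-6, taken as a named list at their WBcel235 (ce11) coordinates. They are 5 of 19290 protein-coding genes with at least 1 listed GATC site, of which 18647 had the 60 reads required for a test, and all 5 members were among those tested. The remaining family member, vit-1, was measured in the same way and is given beside them. vit-6 encodes the precursor of the smaller yolk proteins, and the others encode the large ones. vit-3, vit-4 and vit-5 are near-identical copies, and how reads that map to more than 1 of them were treated is not given in the sources used here, so the assignment of reads among these 3 genes is uncertain. No sequences were compared. Parts of vit-1 and vit-2 have listed sites at like spacing, so the same uncertainty may hold for these 2 genes.

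The values come from DNA adenine methyltransferase identification (DamID), in which the bacterial enzyme Dam methylates GATC sequences close to its fusion partner, and the methylated fragments are amplified and sequenced. In 3 libraries, from strain BN1470, Dam was joined to EMR-1, which is emerin of the inner membrane of the nuclear envelope. In the other 3, from strain BN1465, it was joined to GFP, and this GFP::Dam fusion reports how accessible chromatin is. Both strains carry the genotype label WT and the cell type label EMS. Cultures of both had 1000 L1 larvae per plate and were kept at 20 °C for 72 h on bacteria that lack Dam. Adults from these cultures gave the embryos. Each strain carries 1 construct, so an effect of strain cannot be told apart from one of construct. The labels used here do not describe how Dam activity was limited to EMS. DamID measures no RNA, so neither the cell type label nor the activity of the vit genes could be checked against expression. The labels name 3 replicates per strain without stating separate cultures. The p-values therefore cover the spread among these libraries, which may be technical. Depth was 22407988, 15719682 and 17358287 reads in Dam::EMR-1 replicates 1 to 3 and 17535839, 16278015 and 17474703 reads in GFP::Dam replicates 1 to 3. All ratios are log2 of Dam::EMR-1 over GFP::Dam, for libraries of the same replicate number and centred by the authors to a mean of 0 over all entries of a table. The headers do not name the numerator, and this order, with every direction and every assignment of reads to a group, rests on the naming of the tables after EMR-1.

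A gene's ratio is the mean over the GATC sites in its body and in 500 bp on either side. vit-6 was higher in Dam::EMR-1 and was the 1 member whose ratio passed the test. On chromosome IV, from 8261157 to 8266459, it had replicate ratios of 2.92, 2.75 and 2.68, with a mean of 2.79 ± 0.12 (SD, n = 3; limma, adjusted p = 0.0047). The replicates differed by little beside their distance from 0. The 4 members on the X chromosome had lower means and wider spreads, and limma called none of them at an adjusted p of 0.05. In the limma fit with no replicate block vit-2 passed as well (1.50, adjusted p = 0.037).

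vit-2, on X from 5101032 to 5106169, had ratios of 2.02, 1.86 and 0.41, a mean of 1.43 ± 0.89 (SD, n = 3; limma, adjusted p = 0.076). vit-3, on X from 3567355 to 3572549, had 1.14, 0.88 and 1.95, a mean of 1.32 ± 0.56 (SD, n = 3; limma, adjusted p = 0.15). Both genes were thus above 0 in 3 of 3 replicates, as was vit-6. Of all genes tested 39.0% were above 0 and 34.7% below 0 in 3 of 3 replicates, and no member was below. vit-5, on X from 3403471 to 3408603, had 2.33, 0.95 and -0.35, a mean of 0.97 ± 1.34 (SD, n = 3; limma, adjusted p = 0.27). vit-4, on X from 3558769 to 3563965, had -1.96, -1.13 and 3.96, a mean of 0.29 ± 3.21 (SD, n = 3; limma, adjusted p = 0.84). In these last 2 genes the replicates lay on both sides of 0, and the direction of vit-4 rested on replicate 3 alone, without which its mean was -1.55. vit-1, on X from 7727889 to 7733168, had -0.39, 1.56 and -0.07, a mean of 0.37 ± 1.04 (SD, n = 3; limma, adjusted p = 0.67), also on both sides of 0.

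Of the 5 members, 1 was called higher and 0 lower, beside 30.2% and 27.2% of all genes tested. No member had a mean below 0, so the count of lower members was also 0 at an unadjusted p of 0.05. The median ratio of the members was 1.32, against 0.31 over all genes tested. Scaling to library totals instead of the deposited centring raised gene ratios by 0.26 on average and added vit-2 to the calls (1.69; limma, adjusted p = 0.044). With that scaling 33.2% of all genes tested were higher. The quasi-likelihood test of edgeR (TMM scaling, with the replicate block) used reads summed over sites whose split among libraries was unique. It called vit-6 (log2 change 5.26, adjusted p = 0.025) and no other member, beside 11.4% of all genes higher and 14.4% lower. For vit-3 the sums left out a site with 1154 of its 1704 reads. The test turned the sign of vit-4 (-4.56, adjusted p = 0.38).

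The order of the means was vit-6, vit-2, vit-3, vit-5 and vit-4, and from vit-2 on, neighbours in this order overlapped in their replicates. The lowest ratio of vit-6, 2.68, lay above the highest of vit-2, 2.02. The ratio of vit-6 exceeded that of vit-2 by 0.90, 0.89 and 2.28, that of vit-3 by 1.78, 1.87 and 0.73, and that of vit-5 by 0.59, 1.81 and 3.04 in replicates 1 to 3. vit-6 was therefore above each of these 3 genes in every replicate, while against vit-4 it was above in 2 of 3. Over the 10 pairs of members the exact two-sided sign-flip test gave no p below 0.25, the smallest that 3 replicate numbers allow, and 0.83 after Benjamini-Hochberg adjustment. Against the mean of the 4 X-linked members, vit-6 was higher by 2.04, 2.11 and 1.19, a difference of 1.78 ± 0.51 (SD, n = 3).

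vit-6 also stood higher among the genes of its chromosome segment than the X-linked members did among theirs, each chromosome being divided into 3 equal segments. It lay 47.2% of the way along IV, and 88.7% of the 1265 other genes tested in the middle segment of IV had lower ratios (median -0.73). vit-2, vit-3, vit-5 and vit-4 all lay in the left segment of X, where 70.2%, 68.5%, 63.1% and 56.5% of 810 genes had lower ratios (median -0.10).

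The chromatin around the members was next compared with the genes themselves. Each gene's surroundings were taken as the mean ratio of the 2-kb bins within 20 kb that did not overlap the gene or its 500-bp flanks. All 5 members were higher than their surroundings in limma at an adjusted p of 0.05, beside 14.3% of all genes tested that were higher and 13.6% that were lower than theirs. The calls of vit-3 and vit-4 are not independent of each other. Their surroundings share bins, among them the lower ones on X from 3550001 to 3558000. The differences were above 0 in 3 of 3 replicates for each member, which held for 30.6% of all genes, and the median difference was 3.34 for the members against 0.16 for all genes. No member had a difference below 0, adjusted or not. Site and bin ratios were centred separately, so each difference also includes the offset between the 2 centrings. With gene and surroundings both scaled to total reads, 4 of the 5 members were called higher. In that fit 10.8% of all genes tested were higher and 16.7% lower than their surroundings. There vit-2 missed 0.05 (2.18; limma, adjusted p = 0.052), and the difference of vit-6 was 2.99.

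vit-6 exceeded its surroundings by 3.62, 3.18 and 3.24 in replicates 1 to 3, a difference of 3.34 ± 0.24 (SD, n = 3; limma, adjusted p = 0.0072). Its surroundings were at -0.56 ± 0.14. vit-3 exceeded its surroundings, at -2.57 ± 0.46, by 3.87, 3.82 and 4.01, a difference of 3.90 ± 0.10 (SD, n = 3; limma, adjusted p = 0.0058). These 2 differences varied little between replicates, although the ratio of vit-3 itself did not pass the test. They remained past 0.05 with surroundings of 10 kb (vit-6 2.71, adjusted p = 0.041; vit-3 3.84, adjusted p = 0.015) and of 50 kb (vit-6 3.76, adjusted p = 0.0020; vit-3 2.60, adjusted p = 0.025) in limma.

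The other 3 differences varied more between replicates. vit-4 differed from surroundings at -3.59 ± 0.62 by 1.19, 3.18 and 7.28, a mean of 3.88 ± 3.11 (SD, n = 3; limma, adjusted p = 0.032). vit-5 differed from surroundings at -2.10 ± 0.68 by 4.98, 3.26 and 0.99, a mean of 3.08 ± 2.01 (SD, n = 3; limma, adjusted p = 0.022). vit-2 differed from surroundings at -1.11 ± 1.16 by 2.03, 4.17 and 1.41, a mean of 2.54 ± 1.45 (SD, n = 3; limma, adjusted p = 0.030). Without replicate 2 only 2 of the 5 members passed, and without replicate 1 or replicate 3 only 3 did. Over all genes tested the share higher than their surroundings was 8.08%, 5.87% and 7.13% in these fits, without replicate 1, 2 and 3 in turn, against 14.3% with all replicates. The call of vit-2 was lost whichever replicate was left out (1.72 to 3.10; adjusted p = 0.059 to 0.20 in limma). It was also lost with surroundings of 10 kb (0.41, limma adjusted p = 0.76) and of 50 kb (1.82, adjusted p = 0.054). That of vit-4 was lost without replicate 2 (4.24, limma adjusted p = 0.11) or 3 (2.18, adjusted p = 0.24). Surroundings of 10 kb (3.71, limma adjusted p = 0.053) and of 50 kb (1.26, adjusted p = 0.44) ended the call of vit-4 as well. That of vit-5 was lost without replicate 1 (2.13, limma adjusted p = 0.15) or 2 (2.99, adjusted p = 0.12). vit-1 differed from its surroundings by 0.13, 2.14 and 1.25, a mean of 1.18 ± 1.01 (SD, n = 3; limma, adjusted p = 0.29).

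**Figure D1:**
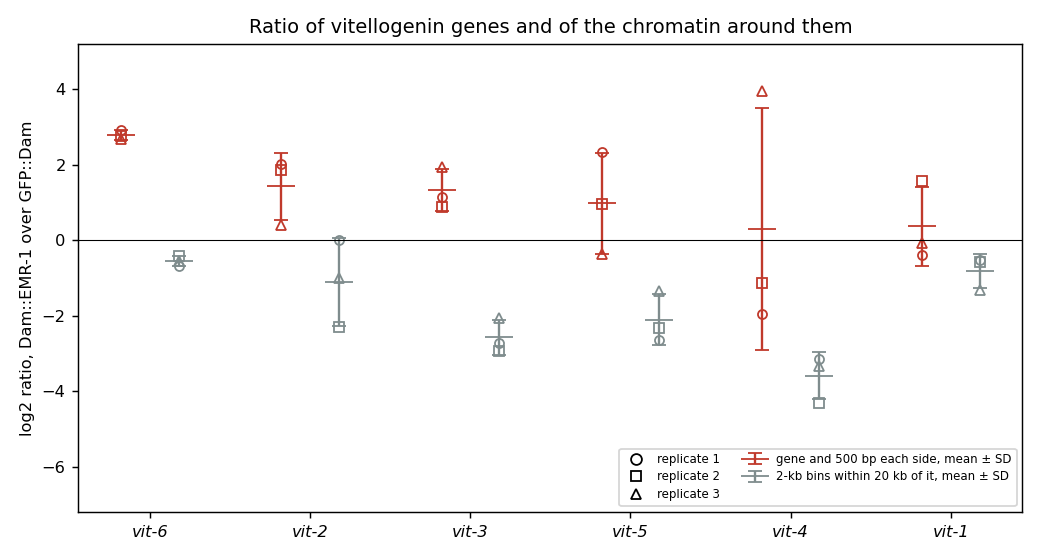
Log2 ratio of Dam::EMR-1 over GFP::Dam for each vitellogenin gene with 500 bp on each side (red) and for the 2-kb bins within 20 kb of it (grey), with 1 symbol per replicate and bars for the mean ± SD (n = 3). Every member lies above its own surroundings in each replicate, while the replicates of vit-6 lie close together and those of vit-4 spread from -1.96 to 3.96.

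Read density over the members and in their surroundings was compared within each library. Densities are given as reads per kb on the CPM scale (reads scaled to the library total), with sites of several possible splits among libraries set to the middle of their range in the members and left out of the surroundings. Over vit-6 the density was 13.5, 5.51 and 17.1 in Dam::EMR-1, close to the 10.1, 7.004 and 12.8 of its surroundings. In GFP::Dam it was 0.57, 0.34 and 0.63 over vit-6, against 11.7, 8.15 and 11.9 around it. The gene thus had a level like that of its surroundings in Dam::EMR-1 and fewer reads than they had in every GFP::Dam library.

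Over vit-3 the density was 4.69, 2.95 and 5.46 in Dam::EMR-1 and 0.36, 0.85 and 0.49 in GFP::Dam. In its surroundings it was 3.23, 6.25 and 3.87 in Dam::EMR-1 and 19.3, 16.1 and 14.0 in GFP::Dam, so that vit-3 was sparse in GFP::Dam in the same way. Over vit-4 the density was 0, 0 and 2.26 in Dam::EMR-1 and 0.40, 0.079 and 0.17 in GFP::Dam, against 2.28, 3.78 and 1.71 in Dam::EMR-1 and 29.9, 24.7 and 23.8 in GFP::Dam around it. vit-4 was sparse in GFP::Dam and in Dam::EMR-1 replicates 1 and 2.

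Over vit-2 the density was 20.1, 18.0 and 11.4 in Dam::EMR-1 and 5.05, 1.28 and 5.53 in GFP::Dam, against 7.26, 6.15 and 5.31 in Dam::EMR-1 and 5.62, 9.67 and 7.61 in GFP::Dam around it. vit-2 was thus denser than its surroundings in every Dam::EMR-1 library and less dense in every GFP::Dam library. Over vit-5 it was 7.12, 13.9 and 3.77 in Dam::EMR-1 and 0.13, 15.7 and 4.52 in GFP::Dam, against 2.21, 2.75 and 4.47 in Dam::EMR-1 and 9.81, 8.71 and 8.597 in GFP::Dam around it. vit-5 exceeded its surroundings in GFP::Dam replicate 2 and in Dam::EMR-1 replicates 1 and 2. A site without reads in both libraries of a replicate number carries the deposited value -0.59, -0.34 or -0.16 in replicates 1 to 3, which draws the mean of a sparsely read gene toward 0. The part of this in the differences from negative surroundings was not tested.

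At the resolution of 2 kb, 95 bins lay within 20 kb of a member and 89 were tested. Of these 5 were higher and 15 lower in limma at an adjusted p of 0.05, beside 19.2% higher and 17.2% lower among all 2-kb bins tested. Of the 16 tested bins that overlapped a member 3 were higher and 0 lower, also 0 lower at an unadjusted p of 0.05. These 3 bins held parts of vit-2, vit-3 and vit-6. The bin in vit-2 from 5104001 to 5106000 had ratios of 10.1, 5.57 and 3.90, a mean of 6.51 ± 3.19 (limma, adjusted p = 0.023). The bin in vit-6 from 8264001 to 8266000 had 4.53, 5.39 and 4.20, a mean of 4.71 ± 0.61 (limma, adjusted p = 0.016). The bin in vit-3 from 3568001 to 3570000 had 3.78, 2.74 and 5.85, a mean of 4.12 ± 1.59 (limma, adjusted p = 0.040; SD, n = 3 for each bin). All replicates of these bins were above 0. With replicate 1 or replicate 2 left out none of the 5 higher bins passed in limma, and without replicate 3 a single one did. Over all 2-kb bins tested the higher ones numbered 2549, 2174 and 2774 without replicate 1, 2 and 3 in turn, against 7879 with all replicates.

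Outside the members 2 bins were higher and 15 lower. These 15 were all the lower bins among the 89 tested, a share near the 17.2% of all 2-kb bins tested. The lowest was the bin on X from 3554001 to 3556000, left of vit-4, with ratios of -10.3, -10.1 and -9.88 and a mean of -10.1 ± 0.19 (SD, n = 3; limma, adjusted p = 0.0070). It lies in rgs-7, a gene for a regulator of G protein signalling, whose gene ratio was -5.13 ± 0.60 (SD, n = 3; limma, adjusted p = 2.8e-05). The bin left of vit-5 from 3398001 to 3400000, in the chitinase gene cht-1, had a mean of -9.46 ± 1.96, and that right of vit-2 from 5122001 to 5124000 had -9.72 ± 0.87 (SD, n = 3; limma, adjusted p = 0.0075 and 0.0072). vit-6 had no lower bin within 20 kb. vit-3 and vit-4 lie within 20 kb of each other, so they share part of their surroundings, and leaving the other member out of the surroundings ended none of the 5 calls.

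**Figure D2:**
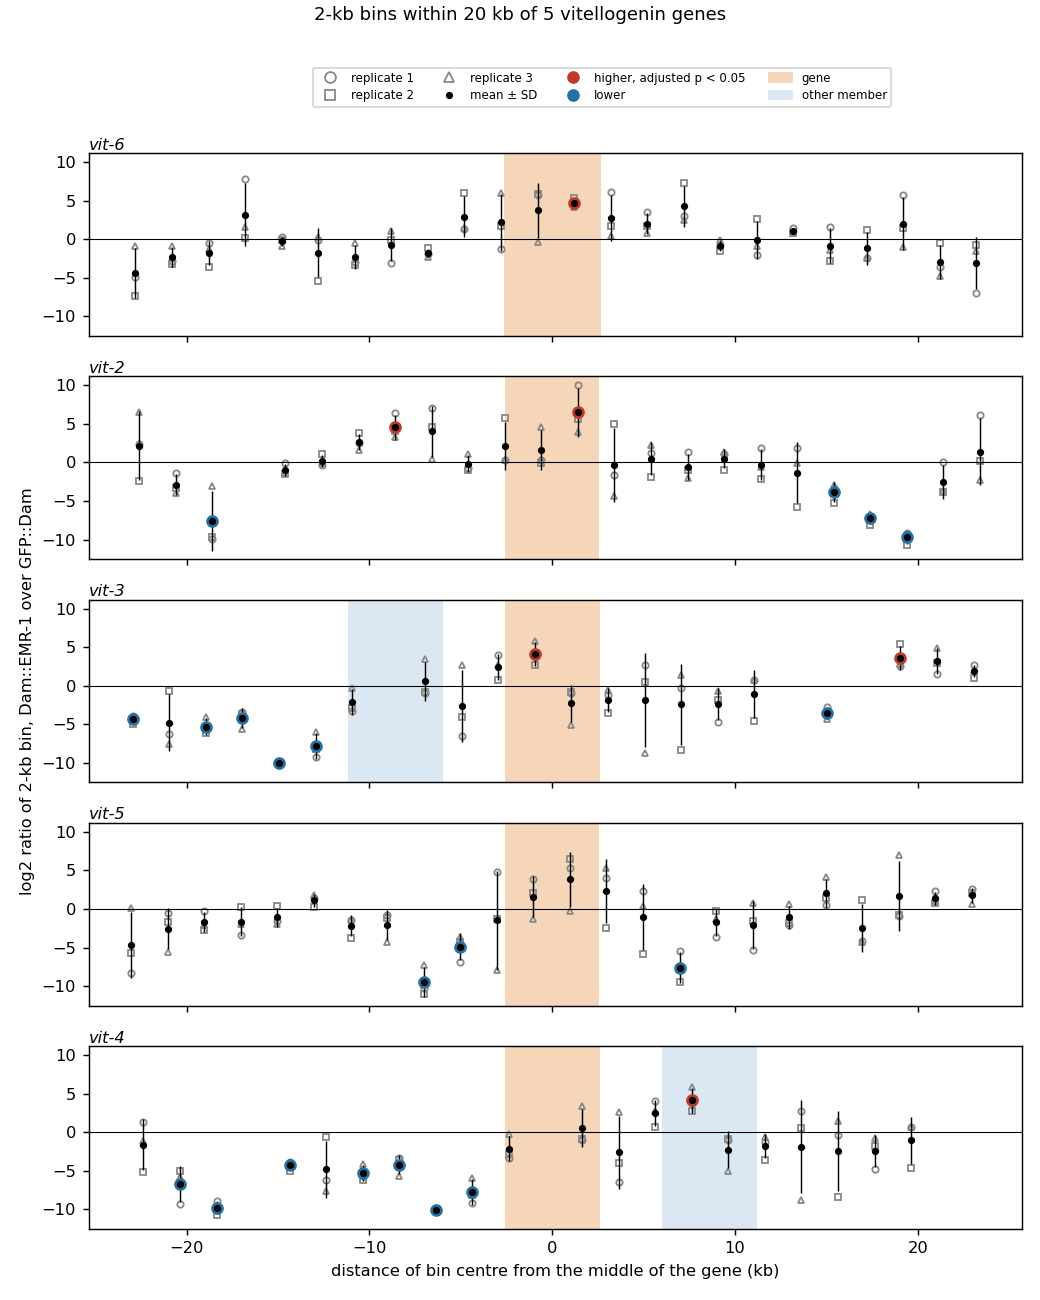
Log2 ratio of Dam::EMR-1 over GFP::Dam in 2-kb bins against the distance of the bin centre from the middle of each member in kb, with open symbols for replicates and filled points with bars for the mean ± SD (n = 3). Red marks the 5 higher and blue the 15 lower bins in limma (a bin near 2 members is drawn for each); in the higher bins within vit-2, vit-3 and vit-6 all 3 replicates lie above 0, and no lower bin overlaps a member.

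Of 28 other protein-coding genes within 20 kb 3 (10.7%) were higher and 8 (28.6%) lower, beside 30.2% and 27.2% of all genes tested, with a median ratio of -0.75. The share of lower neighbours was thus near that of all genes. Around vit-5, 4 of 9 neighbours were lower, among them cht-1 at -5.76 ± 0.52. Around vit-6, K07H8.5 was higher at 2.27 ± 0.32 (SD, n = 3; limma, adjusted p = 0.0023), while T09A12.8 at -3.27 ± 1.78 and K07H8.9 at -2.69 ± 1.98 were lower (SD, n = 3; limma, adjusted p = 0.014 and 0.031). Near vit-2, acn-1, which encodes a protein related to angiotensin-converting enzyme, was higher at 3.45 ± 0.97 (SD, n = 3; limma, adjusted p = 0.0028). The flanks of vit-2 and vit-5 reach into their neighbours C42D8.9 and unc-78, those of vit-3 and vit-6 into T27A10.5 and K07H8.8, and sites there cannot be given to 1 gene. In bins of 10 kb the one that contains vit-6 had a mean of 4.81 ± 0.69, the one with parts of vit-3 and vit-4 2.29 ± 1.17, the one with vit-2 1.54 ± 1.33 and the one with vit-5 0.25 ± 1.65 (SD, n = 3). The 10-kb bin on X from 3550001 to 3560000, which takes in the left end of vit-4 and the low stretch in rgs-7, had -5.11 ± 0.59. The bin from 3570001 to 3580000, which holds the right part of vit-3, had ratios of -0.19, -2.39 and -0.38. Its mean was -0.99 ± 1.22 (SD, n = 3).

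Levels in each library were solved from the same ratios and read totals, so they describe the ratios and are no separate test of them. They are given as CPM over the sites of a gene whose reads per library could be recovered. vit-6 had 79.9, 26.0 and 93.7 CPM in Dam::EMR-1 and 0.80, 0.25 and 3.78 CPM in GFP::Dam, from 3826 and 84 reads. The lowest Dam::EMR-1 library lay far above the highest GFP::Dam library, and the exact two-sided permutation test of log2(CPM + 1) gave p = 0.1, the smallest that 3 against 3 libraries allow. vit-2 had 119, 108 and 66.3 CPM in Dam::EMR-1 and 30.2, 5.47 and 30.7 CPM in GFP::Dam, also without overlap (exact permutation p = 0.1). A separation in this direction was seen in 36.4% of all genes tested, and the opposite one in 25.2%.

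vit-3 had 5.36, 1.27 and 11.3 CPM in Dam::EMR-1 and 0.11, 0.25 and 1.77 CPM in GFP::Dam over 7 of its 9 sites, where the groups overlapped (exact permutation p = 0.2). Its site with most reads, 1154 in all, has 2 possible splits among libraries and is not in these values. With such sites added at the middle of their possible reads vit-3 had 29.1, 18.3 and 33.8 CPM in Dam::EMR-1 and 2.22, 5.25 and 3.06 CPM in GFP::Dam, and the groups did not overlap under any split (exact permutation p = 0.1).

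In vit-5 and vit-4 single libraries stood out. vit-5 had 41.9, 80.6 and 22.9 CPM in Dam::EMR-1 and 0.80, 95.8 and 25.6 CPM in GFP::Dam, so that the highest level was in GFP::Dam replicate 2 and the lowest in GFP::Dam replicate 1 (exact permutation p = 0.7). vit-4 had 0, 0 and 14.0 CPM in Dam::EMR-1 and 2.51, 0.49 and 1.03 CPM in GFP::Dam (exact permutation p = 1). All 243 Dam::EMR-1 reads of vit-4 came from replicate 3, and the GFP::Dam libraries had 44, 8 and 18 reads. These values compare read levels and not RNA or cell numbers, and fewer labelled cells and less methylation per cell cannot be told apart.

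**Figure D3:**
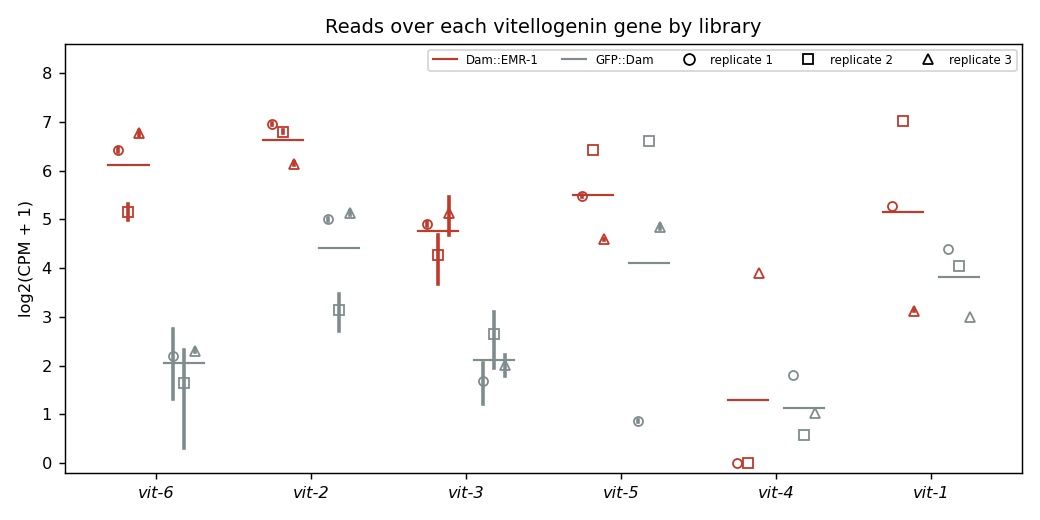
Reads over each vitellogenin gene as log2(CPM + 1) in the Dam::EMR-1 (red, left) and GFP::Dam (grey, right) libraries, with 1 symbol per replicate at the middle of the possible reads, vertical bars for their range and horizontal lines for group means. The groups are apart in vit-6, vit-2 and vit-3 and overlap in vit-5, vit-4 and vit-1.

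The members differed in how many sites they offered. vit-2 had 24 listed sites and 6951 reads over the 6 libraries, vit-5 13 sites and 4788 reads, vit-6 12 sites and 4433 reads, vit-3 9 sites and 1704 reads and vit-4 4 sites and 313 reads. The median gene had 6 sites and 2034 reads. Within the gene bodies this was 3.89 sites per kb in vit-2 and 2.26 in vit-6 but 1.54 in vit-3 and 0.58 in vit-4, against 2.02 in the median gene. In vit-3 the stretch of 2864 bp between 3568819 and 3571683 held no listed site, and in vit-4 that of 3005 bp between 3559889 and 3562894. A site is listed only with at least 10 reads over the libraries, and whether GATC sequences or uniquely mapped reads are lacking in these stretches was not tested.

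Of the 62 listed sites of the members 50 had a mean ratio above 0. The matching share over all sites is not given here, so this count is a description alone. Some of these means came from 1 library. The site of vit-2 at 5103942 had 0, 120 and 0 reads in Dam::EMR-1 and 0 in each GFP::Dam library. Of the 41 sites with at least 60 reads 3 were higher and 0 lower in limma, beside 12.5% higher and 12.7% lower among all sites tested. At an unadjusted p of 0.05 7 were higher and 0 lower. The unadjusted shares over all sites are not given here, so these counts are a description alone. Leaving out any 1 replicate left 0 calls among the 41 sites, and 0 among all sites of the genome as well.

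In vit-6 the called sites were the pair with most reads. The site at 8265136 on IV had 1002, 124 and 825 reads in Dam::EMR-1 and 1, 1 and 40 reads in GFP::Dam, with a ratio of 6.06 ± 2.14 (SD, n = 3; limma, adjusted p = 0.027). Its neighbour at 8264611 had 506, 96 and 600 reads in Dam::EMR-1 and 13, 3 and 25 reads in GFP::Dam, with a ratio of 4.41 ± 0.17 (SD, n = 3; limma, adjusted p = 0.035). At both sites every Dam::EMR-1 library was above every GFP::Dam library in reads. These are the reads behind the 2 calls, so their separation is no separate test. All 12 sites of vit-6 had a mean above 0, again without a share over all sites beside it. The lowest of those with 60 reads, at 8266241, had 77, 0 and 0 reads in Dam::EMR-1 and 0, 0 and 1 in GFP::Dam, with a ratio of 1.40 ± 3.74 (SD, n = 3; limma, adjusted p = 0.54).

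In vit-2 the sites changed from library to library. The highest, at 5105821 on X, had 213, 31 and 17 reads in Dam::EMR-1 and 0 reads in each GFP::Dam library, with a ratio of 5.27 ± 1.66 on the scale of reads + 1 (SD, n = 3; limma, adjusted p = 0.039). The lowest, at 5102865, had 0, 0 and 563 reads in Dam::EMR-1 and 73, 26 and 19 in GFP::Dam, with a ratio of -2.41 ± 6.18 (SD, n = 3; limma, adjusted p = 0.46). The site with 855 reads at 5105220 had 854, 0 and 0 reads in Dam::EMR-1 and 0, 0 and 1 in GFP::Dam. The site at 5101051 had 59, 477 and 0 reads in Dam::EMR-1 and 0, 5 and 41 in GFP::Dam. The Dam::EMR-1 library with most reads was thus replicate 1, 2 or 3, depending on the site.

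The near-identical copies showed the same unevenness. In vit-3 the highest site, at 3568366 on X, had 105, 17 and 80 reads in Dam::EMR-1 and 2, 4 and 2 in GFP::Dam, with a ratio of 3.55 ± 1.77 (SD, n = 3; limma, adjusted p = 0.10). The lowest with 60 reads, at 3568819, had 0, 0 and 89 reads in Dam::EMR-1 and 0 in each GFP::Dam library (1.80 ± 3.92; limma, adjusted p = 0.45). In vit-5 the highest site, at 3408528, had 19, 30 and 159 reads in Dam::EMR-1 and 0, 0 and 11 in GFP::Dam, with a ratio of 3.98 ± 0.56 (SD, n = 3; limma, adjusted p = 0.061). Of the 4788 reads of vit-5, 2074 and 1755 lay at its left end, at 3403307 and 3403673. The site at 3403673, which had the lowest ratio of those with 60 reads, had 369, 485 and 0 reads in Dam::EMR-1 and 11, 722 and 168 in GFP::Dam (-1.37 ± 5.97; limma, adjusted p = 0.66). There the replicate ratios ran from 4.36 in replicate 1 to -7.56 in replicate 3. In vit-4 the single site with 60 reads, at 3564079 in its right flank, had 0, 0 and 126 reads in Dam::EMR-1 and 44, 8 and 16 in GFP::Dam (-2.28 ± 4.54; limma, adjusted p = 0.40).

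Across the members 48 of the 54 sites with known reads (88.9%) had more than 50% of their reads in 1 library, while 62.4% of all such sites in the genome did. In 34.6% of replicate pairs at the members' sites, 56 of 162, neither library had a read, compared with 13.5% over the genome. Amplified reads without molecular identifiers are not independent molecules, so the counts understate the counting error, and the spread over replicates is the guide to precision. The difference between the members and the genome in these shares is given as a description.

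**Figure D4:**
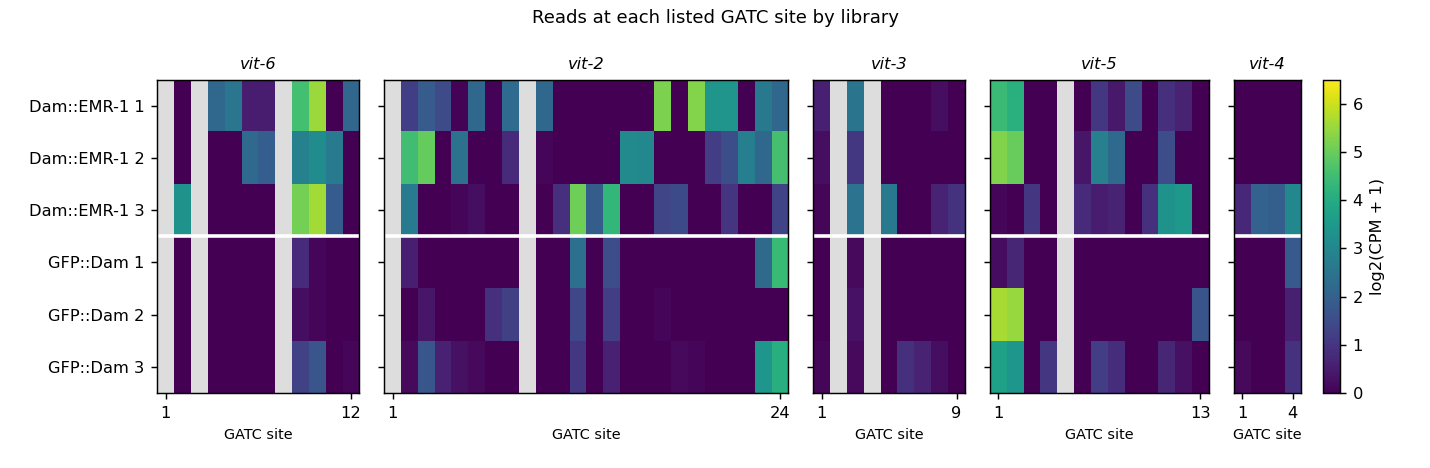
Reads at each listed GATC site of the 5 members, in order along the chromosome from left to right, as log2(CPM + 1) in the Dam::EMR-1 libraries (top 3 lines) and the GFP::Dam libraries (bottom 3 lines), with replicate numbers beside the group; grey marks sites whose reads have several possible splits. The bright cells near the right end of vit-6 recur in the 3 Dam::EMR-1 libraries, those of vit-2 differ between libraries, and vit-4 has colour in Dam::EMR-1 in replicate 3 alone.

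The other genes of the yolk pathway were measured with the same fit, as a list of 22 genes chosen from knowledge of the pathway with earlier results known. In this list 2 genes were higher, 9 lower and 11 did not pass in limma, beside 30.2% higher and 27.2% lower among all genes tested. The median ratio was -1.29, against 0.31 for all genes. Relative to surroundings within 20 kb, 1 was higher and 5 lower, beside 14.3% and 13.6% of all genes.

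Genes for uptake of yolk by oocytes and for its endocytic route made up 9 of the list, of which 0 were higher and 4 lower, and 0 were higher at an unadjusted p of 0.05 as well. rab-7, for the small GTPase of late endosomes, had -6.78, -3.60 and -5.15, a mean of -5.18 ± 1.59 (SD, n = 3; limma, adjusted p = 0.0010). chc-1, for clathrin heavy chain, had -4.94, -2.73 and -3.99, a mean of -3.89 ± 1.11 (SD, n = 3; limma, adjusted p = 0.00061). rme-1, for a protein of endocytic recycling, had a mean of -3.12 ± 1.07 (SD, n = 3; limma, adjusted p = 0.0037). rab-5, for the GTPase of early endosomes, had -2.45 ± 0.83 from 3 sites and 182 reads (SD, n = 3; limma, adjusted p = 0.040). The yolk receptor gene rme-2 had 3.05, 0.34 and 0.46, a mean of 1.28 ± 1.54 (SD, n = 3; limma, adjusted p = 0.20). rme-4, rme-6, rme-8 and rab-35 did not pass either, with means between -1.63 and 1.40.

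Of 11 genes that act on vit transcription or in signalling upstream of it 2 were higher and 5 lower. lrp-2, of the low-density lipoprotein receptor family, had 2.63, 2.25 and 2.67, a mean of 2.52 ± 0.23 (SD, n = 3; limma, adjusted p = 0.0015), and rict-1, for the Rictor subunit of a TOR complex, had 0.99, 2.53 and 2.89, a mean of 2.14 ± 1.01 (SD, n = 3; limma, adjusted p = 0.0079). With edgeR's quasi-likelihood test of summed reads (TMM scaling, with the replicate block) both had a positive value but missed 0.05 (log2 change 1.86, adjusted p = 0.11, and 1.83, adjusted p = 0.098). The homeobox gene unc-62, an activator of vit genes in the adult intestine, had -4.64, -5.28 and -4.93, a mean of -4.95 ± 0.32 (SD, n = 3; limma, adjusted p = 3.9e-05). The zinc finger gene pqm-1 had -4.76 ± 1.50, the FOXO gene daf-16, which acts in insulin signalling, -3.14 ± 0.19, and mab-3, which represses vit genes in males, -3.43 ± 1.28 (SD, n = 3; limma, adjusted p = 0.00018, 0.00045 and 0.0030). elt-2, for the GATA factor that binds vit promoters in the intestine, had -2.51, -4.56 and -2.91, a mean of -3.33 ± 1.09 (SD, n = 3; limma, adjusted p = 0.0029). ceh-60, the partner of unc-62, had 1.32 ± 0.99 and the insulin receptor gene daf-2 1.04 ± 0.70 (SD, n = 3; limma, adjusted p = 0.12 and 0.085). Of the 9 lower genes of the list, 4 also missed 0.05 in that edgeR test. They were mab-3 (log2 change -1.54, adjusted p = 0.49), rab-5 (-3.29, adjusted p = 0.21), chc-1 (-5.75, adjusted p = 0.065) and elt-2 (-2.71, adjusted p = 0.059). lin-29 and sgk-1 had 0.25 ± 0.19 and -1.56 ± 1.41 and did not pass (SD, n = 3; limma, adjusted p = 0.74 and 0.094).

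**Figure D5:**
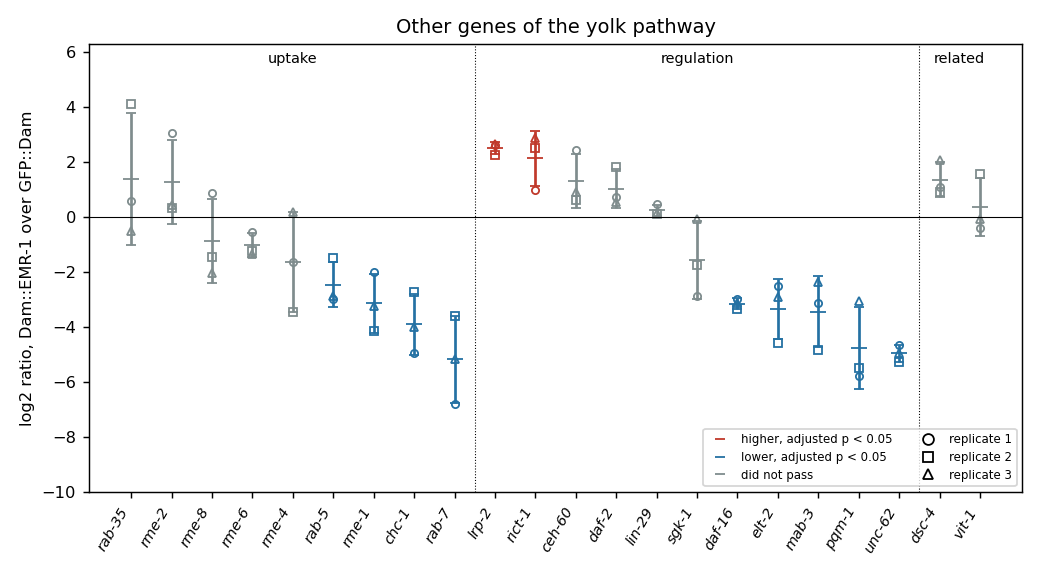
Log2 ratio of Dam::EMR-1 over GFP::Dam for the 22 other genes of the yolk pathway, by role and in order of their means, with 1 symbol per replicate and bars for the mean ± SD (n = 3). The 2 higher genes lrp-2 and rict-1 and the 9 lower ones are coloured; the other 11 did not pass.

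The genes whose 3 replicate ratios lay nearest to those of each member were found by Euclidean distance over the replicate ratios, among 9322 genes with at least the median read sum. For vit-6 this was Y69A2AR.16 on IV, with 2.99, 2.78 and 2.46 (distance 0.24 log2 units). For vit-2 it was him-4 on X, with 1.94, 1.68 and 0.57 (distance 0.25), and for vit-5 it was C29F3.7 on V, with 2.46, 0.83 and -0.22 (distance 0.22). For vit-3 it was dsc-4 on IV, the gene for the large subunit of the microsomal triglyceride transfer protein, with 1.11, 0.91 and 2.09 (distance 0.15). dsc-4 was also on the yolk list, with a mean of 1.37 ± 0.63 (SD, n = 3; limma, adjusted p = 0.057). A search of 9322 genes returns a nearest gene for any member, and a link between a member and its nearest gene was not tested. The nearest gene to vit-4 was farther away, W02B3.3 on III with -1.67, -0.55 and 3.88 (distance 0.66).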

How the data were processed

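DamID libraries of 2 groups, 3 with Dam::EMR-1 and 3 with GFP::Dam, were used, grouped and numbered by their titles. Per the labels' protocols, 4000 adults per strain were bleached, and 200 ng of genomic DNA went through 24 PCR cycles. The deposited tables hold, per the file headers, a log2 ratio for each replicate number and a deposited read count, the total of the 6 libraries, per GATC site and per bin of 2, 10 and 100 kb. From the values, each deposited ratio is log2 of (reads + 1) over (reads + 1), minus a constant per column. The submitters' processing notes list the build ce11, and DESeq2 without a role or version. The aligner is not given in the sources used here. Unused columns of per-sample values numbered 0.

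The whole reads of each library were solved for from ratio and total (tolerance 4e-12 on the log2 scale). Solutions were unique at 90.2% of GATC sites, in 90.1% of 2-kb and in 99.9% of 100-kb bins, and 0 entries had none. Depth was taken from the 100-kb table. Read recovery and the limma fit were tested on simulated data. limma (3.58.1 in R 4.3.3) was fitted with an intercept only to the 3 ratios, with a variance trend on log2 reads, robust estimation and Benjamini-Hochberg adjustment over all entries with at least 60 reads, two-sided, at 0.05. The ratio takes same-numbered libraries together. Differences from surroundings were fitted in the same way over all protein-coding genes. Reads summed over the sites of a gene with a unique solution were tested with edgeR 4.0.16. Library levels were tested by exact permutation with scipy 1.17.1.

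Genes were placed by RefSeq coordinates on WBcel235. Site positions are those of the deposited tables. Members, lists and tests were chosen with earlier results of these data known. Genes named are the members, vit-1, the yolk list, the nearest gene to each member and, per member, the highest and lowest site with at least 60 reads; neighbouring genes and bins, K07H8.5, acn-1 and the sites at 8264611, 5105220, 5101051 and 3403307 were chosen after their values were seen. Alternatives were another read minimum, scaling, threshold, pseudocount (0.1 and 5), gene window, distance (10 and 50 kb), edgeR, fits without the replicate block and each replicate left out.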

Additional observations from a re-analysis of the deposited data

How the results depend on the processing

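Total-read scaling and the fit with no replicate block raised vit-2 past 0.05 (1.69, limma adjusted p = 0.044, and 1.50, adjusted p = 0.037), for 2 members called higher instead of 1. Over all genes tested these fits called 33.2% and 31.2% higher, against 30.2%. vit-4 turned negative without replicate 3 (range without 1 replicate -1.55 to 1.42), in edgeR with the replicate block by TMM (-4.56) or total-read scaling (-3.88), and as a read level at log2(CPM + 0.1) (-1.21 against 0.17 at log2(CPM + 1)). vit-5 turned negative in edgeR by TMM with no replicate block (-0.55). vit-6 stayed past 0.05 under all 13 alternatives, although the threshold of 0.01, no read minimum and the gene body alone left its ratio at 2.79. At an adjusted p of 0.01, 2 of the 5 differences from surroundings passed (not those of vit-2, 2.54, vit-4, 3.88, and vit-5, 3.08). Leaving out 1 replicate gave 2 to 3 calls (vit-2 1.72 to 3.10, vit-4 2.18 to 5.23, vit-5 2.13 to 4.12). Surroundings of 10 kb (vit-2 0.41, vit-4 3.71) or 50 kb (vit-2 1.82, vit-4 1.26) gave 3 calls each. The share of all genes higher than their surroundings was 10.3% and 18.6% in these fits. Among alternatives chosen after seeing the data, total-read scaling of gene and surroundings lost vit-2 (2.18), and surroundings as the mean over GATC sites lost vit-4 (3.44). The higher 2-kb bins numbered 0 at 0.01, 8 with total-read scaling and 0 to 1 without 1 replicate, and the lower ones 6 at 0.01 and 8 to 10 without 1 replicate, against 5 and 15. With total-read scaling 25.1% of all 2-kb bins tested were higher. The higher sites numbered 0 at 0.01, 0 without 1 replicate and 5 with no replicate block, against 3. The fit with no replicate block called 20.1% of all sites tested higher. The yolk list had 4 higher genes with total-read scaling, 4 with no replicate block and 1 to 2 without 1 replicate, against 2. In edgeR with the block by TMM and total-read scaling it had 0 and 4, beside 11.4% and 17.5% of all genes. Its lower genes numbered 5 and 4 in these edgeR fits, against 9, beside 14.4% and 11.8% of all genes. Same-numbered libraries of the groups deviated with correlations of -0.05, -0.06 and -0.03 over 18571 genes, so the numbers are not shown to pair the samples. Causes of these changes were not tested, beyond the fewer samples in fits without 1 replicate. vit-4 rests on 313 reads at 4 sites.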
